A study of Mus musculus with 18 samples.

Results

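The transcription factor p53, encoded by Trp53 in the mouse, responds to damaged DNA and other stress by switching on genes that stop the cell cycle, repair DNA or start apoptosis. Among its direct targets are Cdkn1a, whose product p21 blocks cyclin-dependent kinases, and Mdm2, a ubiquitin ligase that marks p53 for destruction and so closes a feedback loop. The messenger RNA of 31 genes listed as p53 targets was followed here in alphaTC1 cells, a murine line of glucagon-producing pancreatic alpha cells. Whether p53 acts directly on each of them in these cells was not tested. The 31 genes were picked by symbol, and all were found among the 55487 genes of the count tables. The line comes from a tumour of mice in which the preproglucagon promoter drove a viral large T antigen, a protein known to bind p53.

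All 18 libraries came from this line and fall into 5 groups in 2 experiments. In experiment 1, cells had been transduced 5 days before with an empty vector (EV, 3 libraries) or with an shRNA, a short hairpin RNA, against Smndc1, which encodes a splicing factor (shSmndc1, 3 libraries). In experiment 2, all cells also carried RIP-mCherry, a red fluorescent reporter under the rat insulin promoter, which lights up cells that turn on insulin. There, 4 libraries carried the empty vector (EV_RIP), 4 were shRNA cells sorted for lack of the reporter (shSmndc1_RIP_neg) and 4 were shRNA cells sorted for its presence (shSmndc1_RIP_pos). No label dates experiment 2, mentions a sort of the EV_RIP cells or calls the replicates separate cultures, so p-values measure a spread between libraries that may be technical. Fold changes are on the log2 scale, ± standard error (SE). Levels are in CPM, counts scaled to a common library size with the TMM method, and a gene passed a test at an adjusted p under 0.05 over all genes tested.

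Total counts lay between 8084574 and 103048766 per library, and both of these extremes were in experiment 2. The lowest total was in shSmndc1_RIP_neg replicate 3, followed by replicate 4 of that group at 23744051. Replicates 1 and 2 of that group had 38869563 and 80757285, and all other libraries had 34045268 or more. The targeted gene Smndc1 stood at 9.52 to 10.5 CPM in shSmndc1 against 35.1 to 41.9 in EV, and at 15.97 to 25.2 CPM in positive libraries against 37.6 to 54.9 in EV_RIP. In the libraries labelled shSmndc1_RIP_neg it was at 23.9, 43.4, 36.3 and 44.6 CPM, a log2 difference of -0.27 ± 0.20 (SE) that did not pass (edgeR adjusted p = 0.378). In replicates 2, 3 and 4 the messenger was within or near the control range, so it does not bear out the knockdown label, and these 4 libraries are called libraries labelled negative from here on. Of the alpha cell markers, glucagon (Gcg) was at 3774 CPM or more in every library. Since these are bulk samples, fewer expressing cells and less RNA per cell cannot be told apart for any gene below.

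The binding site of p53, the p53 response element, is a pair of 10-base arms that may be separated by up to 13 bases. It was searched in the RefSeq promoter windows (assembly GRCm38.p6, 250 bases before to 50 after a transcript start) of the 24 target genes found in the table. Both arms had to keep the C and the G of their core, up to 2 other bases could differ, and the element reads the same on both strands, so that 1 pass covers both. Of 33 windows 5 held such a match, or 15.2%, against 4.09% of all 32851 windows. These 5 are shown because they include the target with the highest level in EV, Cdkn1a, and the one gene that passed in both experiments, Gtse1. The capitals mark the arms, and 5 flanking bases stand in lower case on either side.
Cdkn1a (chr17:29090901-29090942, plus strand, 0 mismatches): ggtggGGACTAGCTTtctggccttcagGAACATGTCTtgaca
Ccng1 (chr11:40755457-40755486, minus strand, 1 mismatch): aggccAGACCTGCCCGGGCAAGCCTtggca
Gtse1 (chr15:85859940-85859969, plus strand, 1 mismatch): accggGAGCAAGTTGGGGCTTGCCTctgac
Bax (chr7:45467074-45467104, minus strand, 2 mismatches): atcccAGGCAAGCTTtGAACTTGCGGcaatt
Sesn1 (chr10:41887248-41887280, plus strand, 2 mismatches): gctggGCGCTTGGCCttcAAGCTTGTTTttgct
The Cdkn1a match lay 73 to 42 bases before the start, with a 12-base spacer, and was the only perfect match among the target genes, while 24 windows of the whole table (0.0731%) held one. In Gtse1 the match ran from the last base before the start to base 18 after it. The matches of Ccng1, Bax and Sesn1 began 195, 201 and 186 bases before the start. All these distances are to the start of the window that held the match. For Cdkn1a, Gtse1 and Sesn1 a window around another start held no match (chr17:29093519-29093818, chr15:85859457-85859756 and chr10:41810324-41810623). A match is a description of the letters in these windows, and elements farther from the start were not searched.

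Per transcript length, the control cells made much more RNA of some targets than of others. In EV, Cdkn1a led with 106 ± 40.6 FPKM (the deposited values per length and depth, SD, n = 3), followed by Plk2 at 70.8 ± 25.6, Ccng1 at 63.0 ± 30.7 and Bax at 54.6 ± 6.73 FPKM. The step between each of these neighbours was smaller than the SD of the higher of the pair. In EV_RIP the same 4 genes led, at 87.0 ± 7.87, 87.0 ± 17.0, 55.2 ± 14.1 and 71.7 ± 7.34 FPKM (n = 4). At the other end, Pmaip1, which encodes the apoptosis inducer Noxa, had 0 counts in all 18 libraries, so that levels of up to 0.0294 CPM in the deepest library and 0.361 CPM in the shallowest remain possible. Tnfrsf10b, a death receptor, Perp, a membrane protein of cell junctions, Phlda3, an inhibitor of Akt signalling, and Gdf15, a secreted stress cytokine, reached at most 1.20 CPM (Gdf15) in any library. After the filter on low counts 28 of the 31 genes could be tested in experiment 1 (not Phlda3, Perp and Pmaip1) and 29 in experiment 2 (not Perp and Pmaip1).

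Against EV_RIP, p53 target genes were mostly higher in the libraries labelled negative. Of the 29 genes tested 15 rose and none fell, against 8.17% higher and 5.69% lower among all 18897 genes tested. The log2 fold change was above 0 for 27 of the 29, with a median of 0.87 against -0.01 for all genes. The 15 were Cdkn1a, Btg2, Gtse1, Psrc1, Ccng1, Plk2, Mdm2, Trp53inp1, Bbc3, Apaf1, Pidd1, Fas, Eda2r, Sesn2 and Polk, with rises between 0.71 for Btg2 and 2.16 for Fas on the log2 scale. They cover the cell cycle, feedback on p53, the death receptor and mitochondrial routes of apoptosis, and stress metabolism, the last through Sesn2 alone. Of the 4 DNA repair genes 1 was among them. At an unadjusted p under 0.05 in edgeR's test 18 were higher and 0 lower, against 33.2% of all genes in either direction. DESeq2 called 17 higher and 0 lower (11.8% and 8.57% of all genes), and limma-voom 21 higher and 1 lower (20.5% and 20.7%). The fold changes of all testable genes in the comparisons with a control are plotted side by side.

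**Figure D1:**
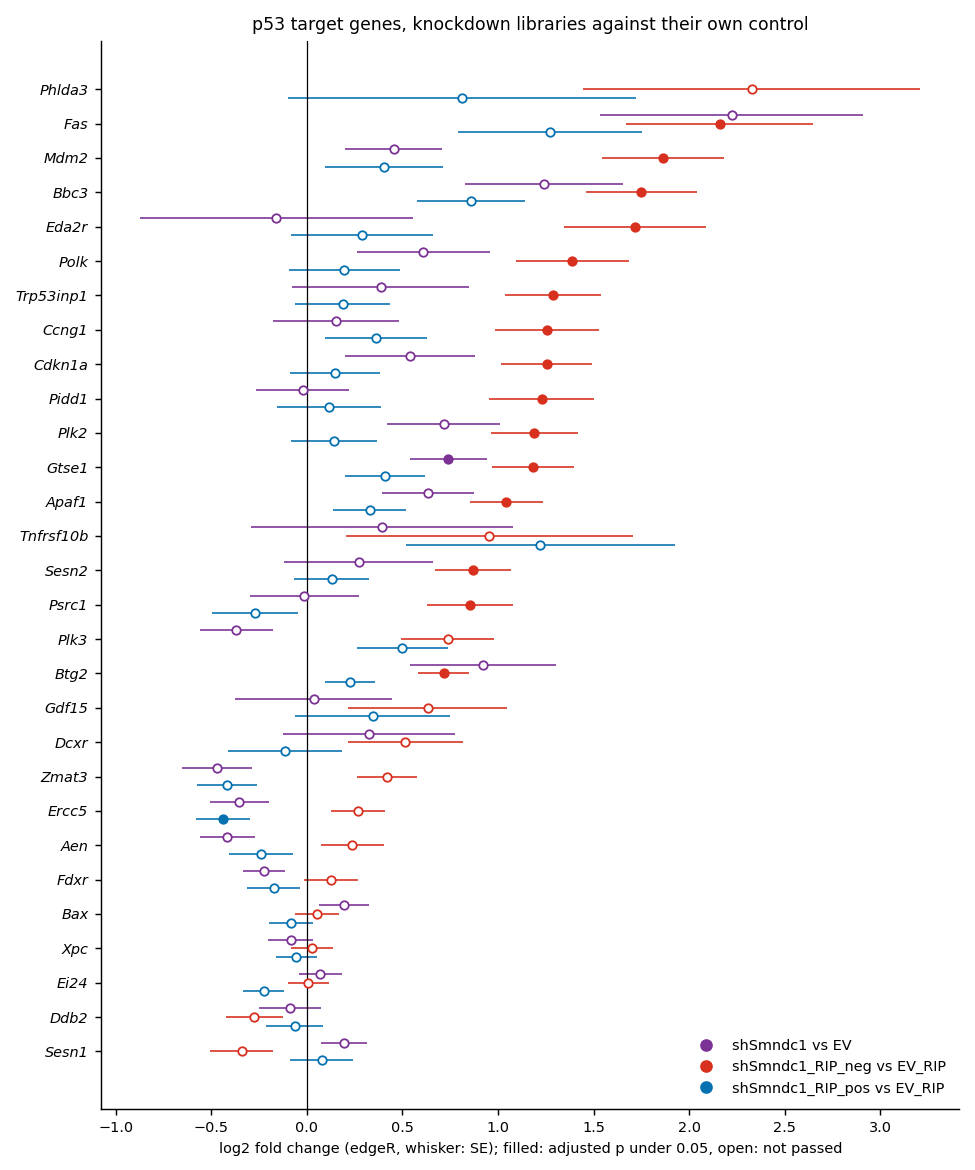
Log2 fold changes (x axis) of the 29 p53 target genes tested in experiment 2 against the control of the same experiment, with standard errors as whiskers. Red points (libraries labelled negative) are filled, meaning passed, for 15 genes, purple points (experiment 1, 28 genes) for Gtse1, and blue points (positive libraries) for Ercc5.

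Of 8 genes grouped here under the cell cycle 6 rose. Cdkn1a was at 264.5, 245, 215 and 230.1 CPM in EV_RIP replicates 1 to 4 and at 277, 694, 528 and 779 CPM in the libraries labelled negative. All 4 of the latter lay above the highest control, replicate 1 by a small margin, and the log2 fold change was 1.25 ± 0.24 (SE) at an edgeR adjusted p of 0.0116. Btg2, an antiproliferative factor that speeds the removal of poly(A) tails, went from 77.5, 67.6, 80.3 and 88.01 CPM to 99.8, 141, 134 and 140 CPM. Its groups did not overlap either, and the rise of 0.71 ± 0.13 was the smallest of the 15 (edgeR adjusted p = 0.0109). Ccng1, a cyclin that acts with Mdm2 to hold p53 down, stood at 195.5, 249.9, 207 and 130.2 CPM in EV_RIP and at 263, 635, 335 and 637 CPM in the libraries labelled negative. Replicates 2 and 4 were near 635 CPM, and replicates 1 and 3 were closer to the control, for a log2 fold change of 1.26 ± 0.27 (SE) at an edgeR adjusted p of 0.0151.

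Gtse1, a microtubule-binding protein that restrains p53, was at 92.35, 127, 89.9 and 96.45 CPM in EV_RIP and 123, 262, 227.5 and 309 CPM in the libraries labelled negative. Replicate 1 lay within the control range, and the other 3 were clear of it (log2 fold change 1.18 ± 0.21, edgeR adjusted p = 0.0105). The kinase gene Plk2 showed the same layout, with 204, 235, 229 and 315 CPM against 295, 519, 776 and 656 CPM (log2 fold change 1.19 ± 0.23, edgeR adjusted p = 0.0116). Psrc1, another microtubule-associated protein, was at 28.05, 58.1, 37.98 and 68.1 CPM against 20.9 to 29.9 CPM in EV_RIP (log2 fold change 0.85 ± 0.23, edgeR adjusted p = 0.0273). The related kinase gene Plk3 and Zmat3, an RNA-binding zinc finger protein, did not pass, with log2 fold changes of 0.74 ± 0.24 and 0.42 ± 0.16 (edgeR adjusted p = 0.0546 and 0.0822).

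Mdm2 and Trp53inp1, which act back on p53 itself, both rose. Mdm2 was at 88.3, 157, 113 and 117 CPM in EV_RIP and at 163.5, 526, 424 and 616 CPM in the libraries labelled negative. Replicates 2, 3 and 4 held at least 2.703 times the highest control, and replicate 1 held 1.04 times that level. The log2 fold change was 1.86 ± 0.32 (SE) at an edgeR adjusted p of 0.00938. Trp53inp1, which promotes the phosphorylation of p53 and autophagy, was at 60.8, 78.95, 96.7 and 71.5 CPM against 96.65, 234, 147 and 273 CPM. Here replicate 1 lay just below the highest control, and the rise was 1.29 ± 0.25 (SE) at an edgeR adjusted p of 0.0123.

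Among the apoptosis genes Bbc3, Apaf1, Pidd1, Fas and Eda2r rose, while Bax and the receptor gene Tnfrsf10b did not pass. Bbc3 encodes Puma, which frees Bax and its relatives to open the mitochondrial membrane, and stood at 6.13, 5.799, 5.25 and 4.62 CPM in EV_RIP and 7.98, 17.6, 23.3 and 25.01 CPM in the libraries labelled negative. The groups did not overlap, and the log2 fold change was 1.75 ± 0.29 (SE) at an edgeR adjusted p of 0.00801. Bax itself was at 70.6, 64.75, 56.5 and 59 CPM against 57.9, 73.8, 60.3 and 68.4 CPM, with overlapping groups and a log2 fold change of 0.06 ± 0.12 (SE) at an edgeR adjusted p of 0.768. Apaf1, the scaffold of the apoptosome, went from 22.8, 31, 28.2 and 28.7 CPM to 33.3, 66.9, 58.8 and 69.5 CPM. Each library labelled negative was above the controls (log2 fold change 1.04 ± 0.19, edgeR adjusted p = 0.0109). Pidd1, which activates a caspase after DNA damage, was at 30.96, 53.4, 43.8 and 46.15 CPM in EV_RIP against 46.05, 132, 101 and 129.5 CPM, with replicate 1 inside the control range (log2 fold change 1.23 ± 0.28, edgeR adjusted p = 0.0164).

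The death receptor Fas and the ectodysplasin receptor Eda2r were scarce in all groups. Fas was at 0.792, 1.501, 0.7935 and 0.248 CPM in EV_RIP and 1.31, 5.305, 2.404 and 5.996 CPM in the libraries labelled negative, a log2 fold change of 2.16 ± 0.49 (SE) at an edgeR adjusted p of 0.017. Its counts per library ranged from 12 to 153 in EV_RIP and from 20 to 448 in the libraries labelled negative, and replicate 1 of the latter lay within the control range. Eda2r was at 1.397, 0.913, 0.8097 and 0.4555 CPM against 1.805, 3.32, 1.68 and 4.765 CPM, without overlap (log2 fold change 1.72 ± 0.37, edgeR adjusted p = 0.015). It was the only 1 of the 15 genes for which replicate 1 was not the lowest of the libraries labelled negative. Phlda3 had the largest log2 fold change of all, 2.33 ± 0.88, yet did not pass (edgeR adjusted p = 0.0848) on 7 to 80 counts per library. Tnfrsf10b (0.95 ± 0.75), Aen, an exonuclease that digests DNA in apoptosis (0.24 ± 0.17), and Ei24, a membrane protein of the endoplasmic reticulum (0.01 ± 0.11), did not pass either.

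The sestrins, which hold back mTOR signalling under stress, parted. Sesn2 was at 109.6, 84.4, 98.55 and 105 CPM in EV_RIP and 109, 168, 230.5 and 219 CPM in the libraries labelled negative, and rose by 0.87 ± 0.20 (SE) at an edgeR adjusted p of 0.0173, with replicate 1 just below the highest control. Sesn1 was at 71.96, 63.1, 72.5 and 66.8 CPM against 73.1, 47.3, 54.6 and 41.7 CPM, a log2 fold change of -0.34 ± 0.17 that did not pass (edgeR adjusted p = 0.165). Replicates 2, 3 and 4 lay below every control and replicate 1 above, and without replicate 1 Sesn1 passed as lower. The metabolic enzymes Fdxr (ferredoxin reductase) and Dcxr (a carbonyl reductase) and the cytokine Gdf15 did not pass, at 0.13 ± 0.14, 0.52 ± 0.30 and 0.63 ± 0.41 on the log2 scale.

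Of the repair genes, the translesion polymerase gene Polk was at 10.2, 12.1, 11.6 and 15.6 CPM in EV_RIP and 12.9, 37.4, 34.7 and 44.9 CPM in the libraries labelled negative. Replicate 1 stayed in the control range and the other 3 held at least 2.228 times the highest control, for a log2 fold change of 1.39 ± 0.29 (SE) at an edgeR adjusted p of 0.0144. None of the nucleotide excision repair genes passed. Xpc, which recognises damaged sites, had a log2 fold change of 0.03 ± 0.11, the endonuclease gene Ercc5 one of 0.27 ± 0.14, and the damage sensor gene Ddb2 one of -0.27 ± 0.15 (edgeR adjusted p = 0.881, 0.205 and 0.212). Of the exonic bases of Ddb2 23.8% lie opposite another gene, so its reads may be mixed.

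**Figure D2:**
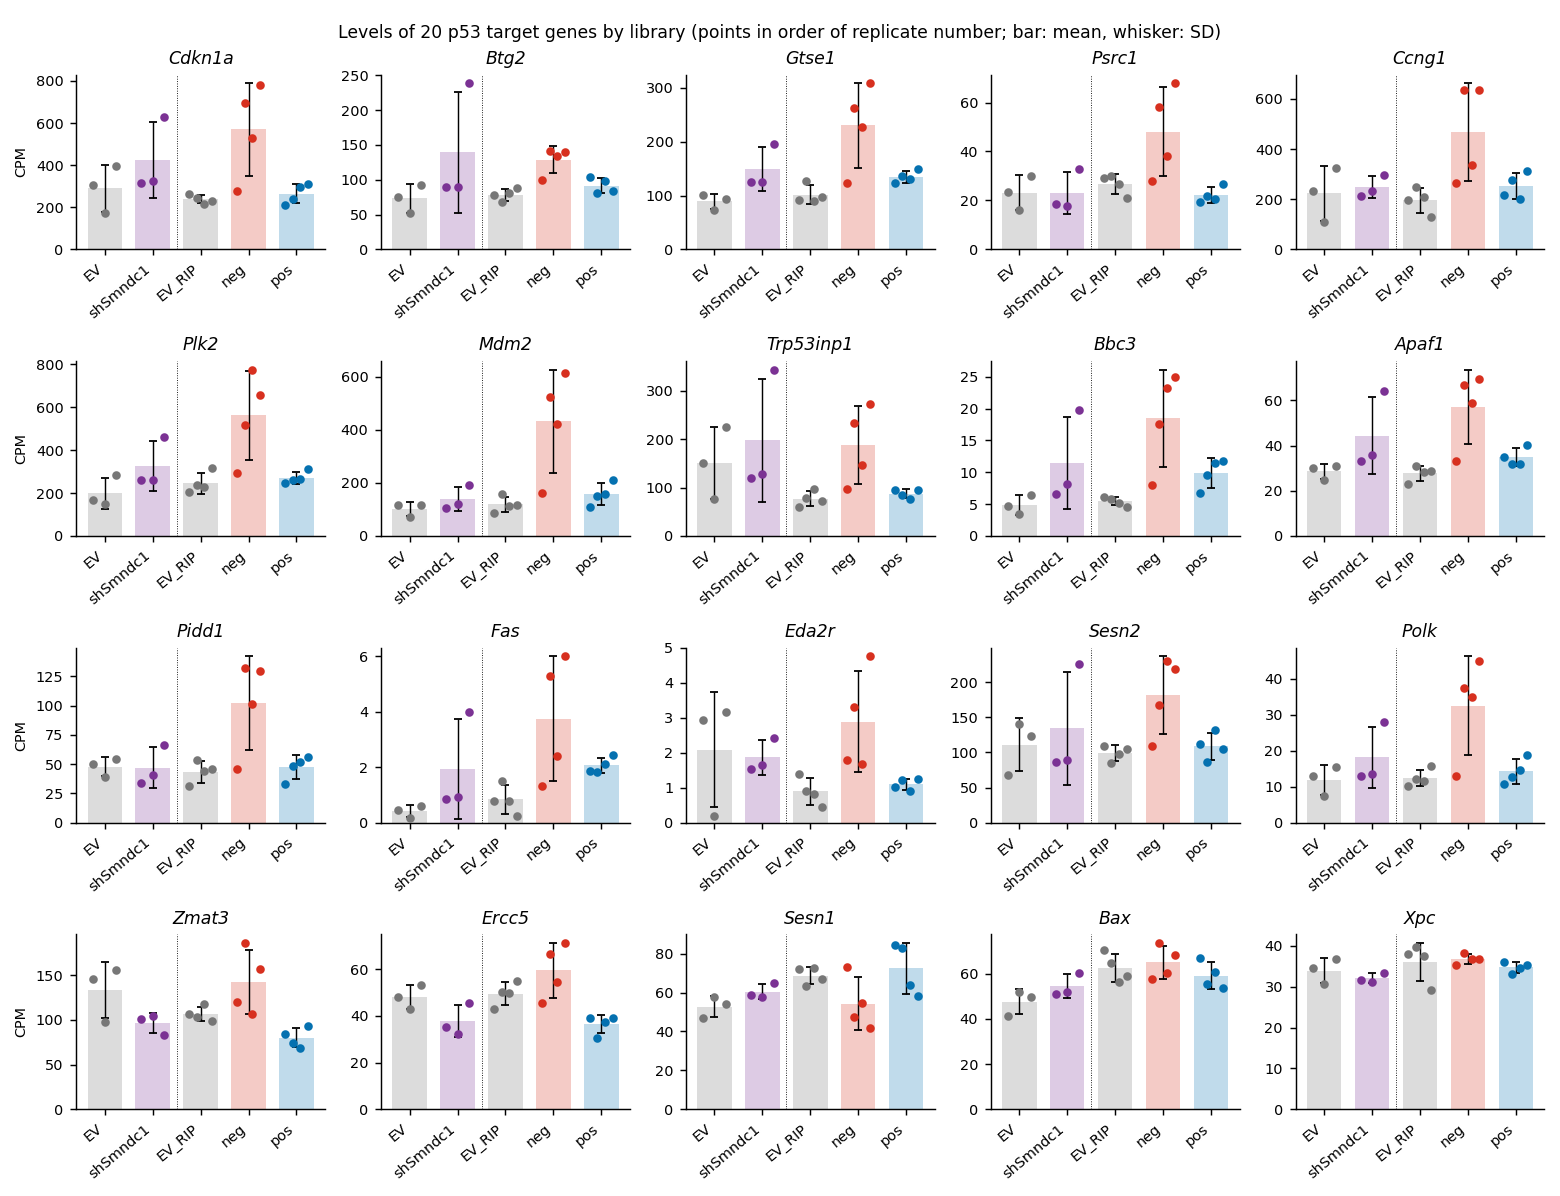
CPM (y axes, each starting at 0) of 20 p53 target genes in the 5 groups, 1 point per library, bars for the mean and whiskers for the SD (n = 3 in EV and shSmndc1, 4 in the others). In the top 3 lines of panels the red points (neg, libraries labelled negative) spread upward from replicate 1 (Eda2r excepted), and the blue means (pos) lie below the red ones. Cdkn1a spans 277 to 779 CPM in neg and 211 to 311 CPM in pos.

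How many genes passed depended on single libraries. Replicate 1 was the lowest library labelled negative in 14 of the 15 genes and exceeded the highest control in 7, and over 28 genes its median log2 ratio to the EV_RIP mean was 0.11, against 0.84, 0.75 and 1.04 in replicates 2, 3 and 4. Of these, replicates 3 and 4 had the lowest total counts of all libraries, and replicate 2 had 80757285. Without replicate 4, 5 genes passed, namely Mdm2, Bbc3, Gtse1, Btg2 and Apaf1. Without replicate 2, 9 passed, and without replicates 3 and 4 together none did, although 16 had an unadjusted p under 0.05 in edgeR's test (14.4% of all genes) and the whole table then held 4 calls. Single calls were lost without EV_RIP replicate 1 (Psrc1, Fas, Pidd1 and Polk), EV_RIP replicate 3 or 4 (Psrc1) and replicate 3 of the libraries labelled negative (Sesn2). In EV_RIP replicate 1 mitochondrial genes held 0.587% of the counts, against 2.345% to 3.98% in the other EV_RIP libraries. Without this replicate 359 genes of the whole table were higher and 180 lower, against 1544 and 1076 as reported. The part of its low mitochondrial share in the calls was not tested. All 4 libraries labelled negative lay above all controls in 7 of the 29 tested genes, against 7.24% of all genes, and in none were all 4 below (7.2% of all genes).

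Other quantities also differed in the libraries labelled negative. Rn7sk, a small nuclear RNA that lacks a poly(A) tail, was at 4.53, 18.6, 161 and 45.4 CPM in replicates 1 to 4, against 5.24 to 14.2 CPM in EV_RIP and 2.44 to 4.68 CPM in positive libraries. Summed histone messengers were at 2.49, 4.77, 10.1 and 10.1 CPM, against 2.22 to 5.11 CPM in EV_RIP and 2.15 to 5.89 CPM in positive libraries. The nuclear RNA Malat1 was at 450 to 688 CPM in the libraries labelled negative and 287 to 670 CPM in positive ones. Both ranges had no overlap with the 109 to 286 CPM of EV_RIP. Among the libraries labelled negative, Malat1 was at 505, 647.5, 450 and 688 CPM in replicates 1 to 4. The summed level of 20 immediate-early genes was 756 to 1374 CPM in the libraries labelled negative and 539.7 to 828 CPM in EV_RIP, and 10 of the 20 passed as higher, against 8.17% of all genes. In positive libraries the sum was 634 to 1117 CPM and 8 of the 20 rose and 1 fell (8.47% and 8.92% of all genes), among them Egr1, at a log2 fold change of 4.13 against 3.14 in the libraries labelled negative. Of 4 endothelial markers 2 could be tested, Pecam1 and Esam, and both passed as higher (8.17% of all genes). The 4 had a summed level of 2.12 to 5.89 CPM against 1.13 to 1.87 CPM, while the defining marker Cdh5 averaged 0.0159 CPM. Of 5 leukocyte markers 2 could be tested, and of these only Cd68 passed as higher (8.17% of all genes). The 5 had a summed level of 20.9 to 30.2 CPM against 15.5 to 19.4 CPM, while Ptprc averaged 0.165 CPM and Cd3e 0.0095 CPM. The part of these in the rise of the p53 target genes was not tested.

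**Figure D3:**
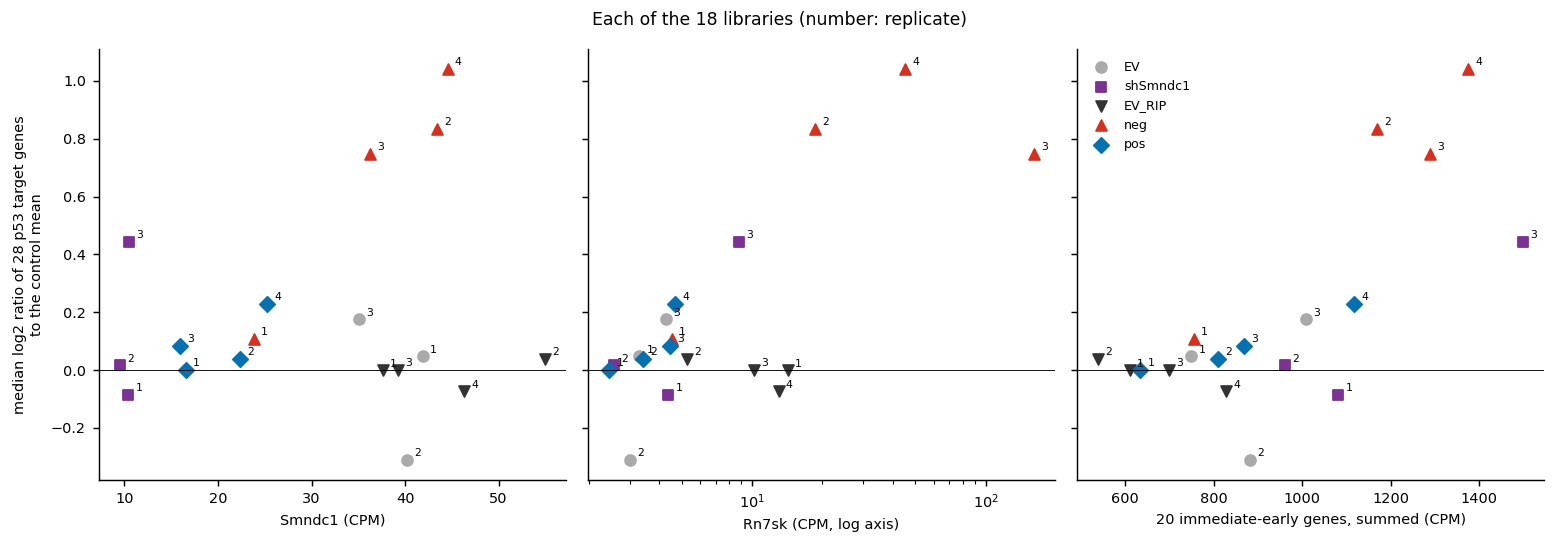
Median log2 ratio of 28 p53 target genes to the mean of the controls of the same experiment (y axes) for each of the 18 libraries, against Smndc1, Rn7sk (log axis) and 20 summed immediate-early genes, all in CPM (x axes), with replicate numbers beside the points. Replicates 2, 3 and 4 of the libraries labelled negative stand at 0.75 to 1.04, with Smndc1 between 36.3 and 44.6 CPM and Rn7sk between 18.6 and 161 CPM, and the other 15 libraries lie between -0.31 and 0.44.

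In positive libraries, in which Smndc1 was lower than in EV_RIP (log2 fold change -1.15 ± 0.205, edgeR adjusted p = 0.00384), none of 29 p53 target genes rose and 1 fell in edgeR's test, against 8.47% higher and 8.92% lower among all genes. At an unadjusted p under 0.05 there were 2 higher and 2 lower, a smaller share than the 33.9% of all genes. DESeq2 called 2 higher and 1 lower (12% and 11.5% of all genes), and limma-voom 4 higher and 2 lower (14.5% and 16%). The gene that fell was Ercc5, at 43.05, 50.25, 49.6 and 54.96 CPM in EV_RIP and 39.2, 30.65, 37.15 and 39.1 CPM in positive libraries, with no overlap (log2 fold change -0.44 ± 0.14, edgeR adjusted p = 0.0468). That call was lost when any 1 of the 8 libraries was left out. The median log2 fold change of the 29 genes was 0.15, with 19 above 0 and 10 below.

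Neither Cdkn1a nor Mdm2 passed there. Cdkn1a was at 211, 241, 295 and 311 CPM in positive libraries, against an EV_RIP range of 215 to 264.5 CPM. The first lay just below that range, the second inside and the other 2 above, for a log2 fold change of 0.15 ± 0.23 (SE) at an edgeR adjusted p of 0.692. Mdm2 was at 111, 149.7, 158 and 211 CPM, with a log2 fold change of 0.40 ± 0.31 (SE) at an edgeR adjusted p of 0.377. The apoptosis genes Bbc3 and Fas were above all controls in all 4 positive libraries without passing. Bbc3 was at 6.76, 9.55, 11.5 and 11.8 CPM (log2 fold change 0.86 ± 0.28, edgeR adjusted p = 0.0506), and Fas at 1.87, 1.83, 2.099 and 2.44 CPM (log2 fold change 1.27 ± 0.48, edgeR adjusted p = 0.0784). Apaf1 also had no overlap upward, at 35.1, 32.01, 31.7 and 40.2 CPM, and Zmat3, at 84.7, 73.9, 68.95 and 92.8 CPM, joined Ercc5 in having none downward. These 3 and 2 of 29 genes compare with 11.7% of all genes in either direction.

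Positive libraries and libraries labelled negative were then compared directly, by sorted pairs with the same replicate number. The labels give both populations numbers 1 to 4, and same-numbered libraries deviated together from their group means. The paired test over these 8 libraries is therefore given beside the unpaired one. That test was chosen after seeing the data, and no label states that a number marks a shared culture. In the paired test 17 of 28 genes were lower in positive libraries and 1 was higher, against 4.72% lower and 3.71% higher of all 17994 genes tested. Without pairing, in the fit over 12 libraries, none passed in either direction, as for all genes (0%). At an unadjusted p under 0.05 in that edgeR test 18 were lower and 1 higher, against 12.2% of all genes in either direction. DESeq2 called 14 lower and 0 higher (1.08% and 0.566% of all genes), and limma-voom 18 lower and 1 higher (3.19% and 2.5%). All positive libraries lay below all libraries labelled negative in 5 genes (Zmat3, Psrc1, Trp53inp1, Eda2r and Ercc5; 3.25% of all genes) and above them in none (3.33%). Libraries labelled negative enter both this comparison and the one with EV_RIP, so the 2 results are not independent.

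Among genes with at least 10 CPM in every library of experiment 2, the largest differences were in Mdm2, Polk, Psrc1, Pidd1 and Cdkn1a. For Mdm2 the log2 ratio of positive to negative was -0.56, -1.81, -1.43 and -1.54 in pairs 1 to 4, and the paired log2 fold change was -1.34 ± 0.15 (SE) at an edgeR adjusted p of 0.000316. For Cdkn1a the ratios were -0.39, -1.52, -0.84 and -1.32, with a fold change of -1.02 ± 0.14 (SE) at an edgeR adjusted p of 0.00115. For Pidd1 they were -0.49, -1.44, -0.95 and -1.20 (log2 fold change -1.03 ± 0.12, edgeR adjusted p = 0.000494). In each of the 3 genes all pairs pointed downward and pair 1 had the smallest difference. The positive library was lower in 4 of 4 pairs for 16 of the 28 genes, against 16.5% of all genes. The 28 genes had a median log2 ratio of -0.22 in pair 1, and of -1.03, -0.66 and -0.94 in pairs 2, 3 and 4.

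Zmat3, Ercc5 and Aen were lower in positive libraries in the paired test without having passed as higher in the comparison of the libraries labelled negative with EV_RIP. Zmat3 was at 120.2, 186.5, 106.5 and 157 CPM in the libraries labelled negative and 84.7, 73.9, 68.95 and 92.8 CPM in positive ones, against 107, 104, 118 and 98.9 CPM in EV_RIP. The positive libraries were thus below all others of experiment 2, and EV_RIP overlapped the libraries labelled negative. The paired log2 fold change was -0.81 ± 0.12 (SE) at an edgeR adjusted p of 0.00131. Ercc5 had a paired log2 fold change of -0.69 ± 0.13 (SE) at an edgeR adjusted p of 0.00495, and Aen one of -0.44 ± 0.12 (SE) at an edgeR adjusted p of 0.0303. Fas, at -0.71 ± 0.29 (SE) at an edgeR adjusted p of 0.147, did not pass, and was higher in the positive library of pair 1. Sesn1 was the only gene higher in positive libraries, in 4 of 4 pairs (log2 fold change 0.44 ± 0.11, edgeR adjusted p = 0.0223), and Ddb2, also above 0 in 4 of 4 pairs, did not pass (log2 fold change 0.22 ± 0.12, edgeR adjusted p = 0.265).

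**Figure D4:**
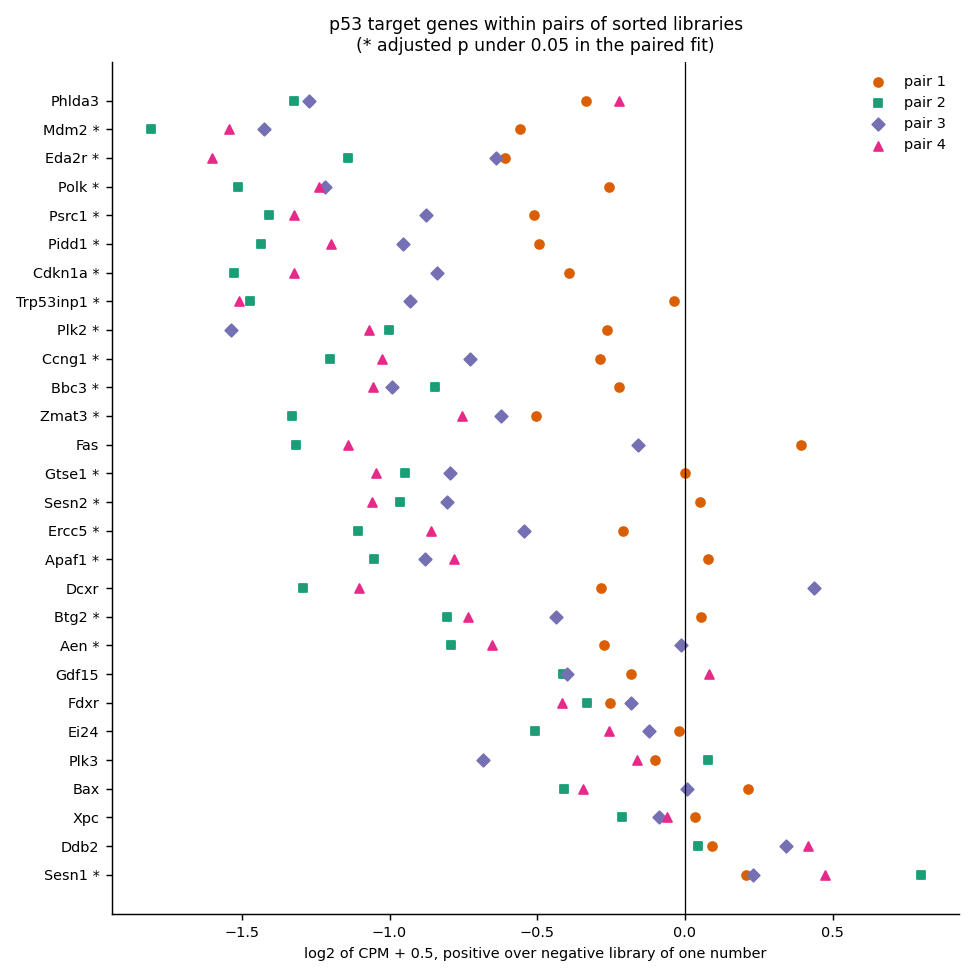
Log2 ratio of the positive to the negative library of the same replicate number (x axis, CPM + 0.5) for 28 p53 target genes (y axis), 1 symbol per pair, with stars for the 18 genes that passed in the paired test. Nearly all symbols lie left of 0 for the upper genes, circles (pair 1) are nearest to 0 for most of them, and Sesn1 lies right of 0 in every pair.

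In experiment 1, whose labels name no sort, 1 of the 28 genes tested rose and none fell, against 7.22% higher and 7.5% lower among all 18202 genes. The gene was Gtse1, with 100.4, 72.8 and 93.4 CPM in EV libraries and 125, 124 and 196 CPM in those with the shRNA. The groups did not overlap, and the log2 fold change was 0.74 ± 0.20 (SE) at an edgeR adjusted p of 0.0414. This call was lost when any EV library or shSmndc1 replicate 2 was left out. The median over 28 genes was 0.20, with 18 above 0 and 10 below, and groups without overlap were found in 5 genes upward and 2 downward, against 19.7% and 19.8% of all genes. At an unadjusted p under 0.05 in edgeR's test 6 genes were higher and 3 lower, a share of 28 near the 32.5% of all genes. DESeq2 called 3 higher and 0 lower (11.1% and 11.2% of all genes), and limma-voom 3 higher and 5 lower (19.6% and 21%).

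Within shSmndc1, replicate 3 stood apart from the other 2. Cdkn1a measured 305, 172 and 395 CPM in EV against 314, 324 and 630.4 CPM in shSmndc1 replicates 1 to 3 (log2 fold change 0.54 ± 0.34, edgeR adjusted p = 0.304). Trp53inp1 measured 151, 75.7 and 226 CPM in EV against 119.5, 129 and 344 CPM (log2 fold change 0.39 ± 0.46, edgeR adjusted p = 0.599). In both genes replicates 1 and 2 lay within the control range and replicate 3 above it. EV libraries held 4.64, 3.46 and 6.475 CPM of Bbc3 and shSmndc1 libraries 6.597, 8.097 and 19.8 CPM, with no overlap (log2 fold change 1.24 ± 0.41, edgeR adjusted p = 0.073). Fas measured 0.467, 0.175 and 0.595 CPM in EV against 0.862, 0.931 and 4.01 CPM (log2 fold change 2.22 ± 0.69, edgeR adjusted p = 0.0598), again with its highest value in replicate 3. Over 28 genes the median log2 ratio to the EV mean was -0.09, 0.02 and 0.44 in replicates 1 to 3, and without replicate 3 the median log2 fold change was -0.06. Replicate 3 also had 1083 CPM of the nuclear RNA Malat1, against 174.5 to 478 CPM in the other libraries of experiment 1, and their relation was not tested.

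The controls varied as well. EV replicate 2 was the lowest of the 3 EV libraries in 24 of 30 genes with counts, with a median log2 ratio to the EV mean of -0.31. Mdm2, for example, measured 115, 72.05 and 118 CPM in EV against 105, 121 and 192.5 CPM with the shRNA, and EV replicates 1 and 3 lay between shSmndc1 replicates 1 and 2 (log2 fold change 0.46 ± 0.25, edgeR adjusted p = 0.249). Downward, Zmat3 measured 146, 98.2 and 156 CPM in EV against 101, 104 and 83.6 CPM with the shRNA (log2 fold change -0.47 ± 0.18, edgeR adjusted p = 0.111), and Aen and Ercc5 had log2 fold changes of -0.41 ± 0.15 and -0.35 ± 0.15 without passing. The heat map shows 29 genes in every library.

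**Figure D5:**
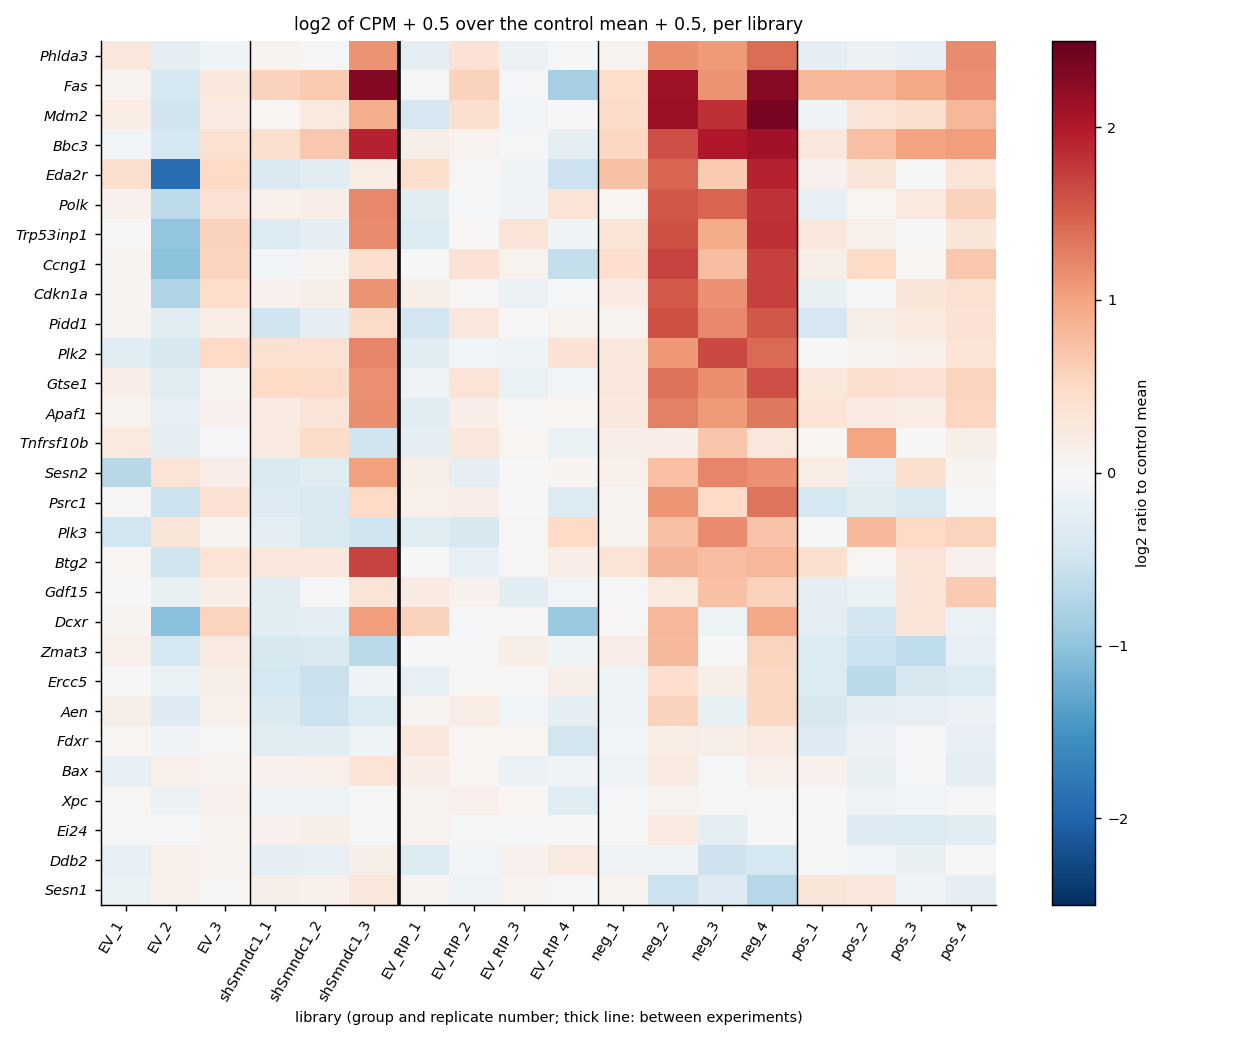
Log2 ratio of CPM + 0.5 to the control mean + 0.5 of the same experiment (colour, red for higher) for 29 p53 target genes (y axis) in the 18 libraries (x axis, thick line between the experiments). The red block is made by replicates 2, 3 and 4 of the libraries labelled negative (neg), shSmndc1 replicate 3 is red for a smaller set that includes Fas and Bbc3, and EV replicate 2 is blue for most genes at the top.

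Whether the effect differed between experiments was tested as an interaction over all 18 libraries, which compares the experiments with their separate controls as well as the cell populations. None of the 29 genes passed in either direction, as for all 20036 genes (0%), for the libraries labelled negative against shSmndc1. At an unadjusted p under 0.05 edgeR's test had 9 higher and 1 lower, against 13% of all genes in either direction. DESeq2 called 0 higher and 0 lower, against 0.928% and 0.759% of all genes. Zmat3 had the smallest p, with a difference between the effects of 0.87 ± 0.25 on the log2 scale (edgeR adjusted p = 0.169). Its log2 fold change was above 0 in the libraries labelled negative and below 0 in shSmndc1, and passed in neither. Mdm2 differed by 1.39 ± 0.46 (edgeR adjusted p = 0.215). For positive libraries against shSmndc1 none of the 29 genes passed either, and 1, Plk3, had an unadjusted p under 0.05 (4.3% of all genes).

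Trp53 messenger itself was higher in experiment 1, with 78.2 to 102 CPM in EV against 121 to 133 CPM in shSmndc1, without overlap (log2 fold change 0.54 ± 0.13, edgeR adjusted p = 0.0292). In the libraries labelled negative it was at 103 to 192 CPM against 79.8 to 137 CPM in EV_RIP (0.65 ± 0.19, edgeR adjusted p = 0.0391), a call lost in 8 of 15 alternatives, among them the loss of replicate 2, 3 or 4. In positive libraries it was at 126 to 148 CPM and did not pass (0.45 ± 0.19, edgeR adjusted p = 0.112). The family members Trp63 and Trp73 averaged at most 0.0164 and 3.30 CPM in any group. In the list of 27 testable p53 family members and regulators, 7 rose and none fell in the libraries labelled negative, against 8.17% higher and 5.69% lower of all genes. They were Trp53, the acetyltransferase genes Ep300 (0.73) and Crebbp (0.76), the deacetylase gene Sirt1 (0.66), Cabin1 (0.64), the phosphatase gene Ppm1d (0.60) and Wrap53 (0.82). In positive libraries 4 rose (Sirt1, Ep300, Crebbp and Cabin1) and none fell, against 8.47% and 8.92% of all genes. In experiment 1, where 7.22% of all genes rose and 7.5% fell, 4 of the 27 rose and the checkpoint kinase gene Chek2 fell (-0.78 ± 0.14, edgeR adjusted p = 0.0131).

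Among 35 further p53 targets outside the 31, 7 rose and none fell in the libraries labelled negative (8.17% and 5.69% of all genes). In positive libraries 3 rose and 2 fell (8.47% and 8.92% of all genes), shares of the 35 near or below those of all genes, and in experiment 1 5 rose and 2 fell (7.22% and 7.5%). In the libraries labelled negative these included Sytl1 (2.30 ± 0.43), the long noncoding RNA Trp53cor1 (1.68 ± 0.41), the peptide transporter gene Tap1 (1.38 ± 0.32) and the kinase gene Dyrk3 (1.07 ± 0.22). Sytl1 and Trp53cor1 were scarce, with means of 0.698 and 0.44 CPM in EV_RIP, and Trp53cor1 overlaps another transcript over 44.1% of its bases. Among those that rose in experiment 1 were Plxnb2 (0.81 ± 0.18) and Polh (0.78 ± 0.175). In experiment 1 Gadd45a, a stress gene that slows the cell cycle, fell by 0.71, and Rrm2b, a ribonucleotide reductase subunit, fell by 0.98. Their medians were 0.27, -0.04 and 0.13 on the log2 scale.

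Of 22 genes known to be repressed through p21 and the DREAM complex, 7 fell and none rose in the libraries labelled negative (5.69% and 8.17% of all genes), with a median of -0.23. They were the cyclin genes Ccnb1 (-0.65), Ccnb2 (-0.97) and Ccna2 (-0.53), the kinase genes Cdk1 (-0.72), Plk1 (-0.45) and Aurkb (-0.53), and the survivin gene Birc5 (-0.50). In positive libraries 1 rose and 2 fell, near the 8.47% and 8.92% of all genes, and in experiment 1 Ccnb2 alone fell, against 7.5% of all genes (-0.68 ± 0.17, edgeR adjusted p = 0.0328). Ccnb2 was thus lower in all 3 comparisons with a control, at -0.86 ± 0.20 in positive libraries (edgeR adjusted p = 0.0129).

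Among 10 testable genes of the BCL2 family outside the 31, the pore former gene Bak1 rose in experiment 1 (1.40 ± 0.19), in the libraries labelled negative (0.60 ± 0.16) and in positive libraries (1.20 ± 0.16), with edgeR adjusted p of 0.00628, 0.0263 and 0.0013. Of its exonic bases 25.5% lie opposite another gene. The anti-apoptotic genes Bcl2 and Bcl2l1 fell in positive libraries (-0.50 and -0.35), Bcl2 also in experiment 1 (-1.06) and Bcl2l1 also in the libraries labelled negative (-0.48). These are 1 higher and 1 lower of 10 in experiment 1 and in the libraries labelled negative, and 1 higher and 2 lower in positive libraries. Of all genes 7.22% were higher and 7.5% lower in experiment 1, 8.17% and 5.69% in the libraries labelled negative, and 8.47% and 8.92% in positive libraries, which is also the background of the repair and ATF4 lists. Of 16 genes for DNA damage signalling and repair, Brca2, Mdc1, Xrcc5 and Xrcc6 fell in experiment 1, Xrcc5 and Xrcc6 fell in positive libraries, and Rad50 rose in the libraries labelled negative. Of 13 targets of the stress factors ATF4 and CHOP, which also act on Sesn2 and Gdf15, 3 rose in the libraries labelled negative, among them Ppp1r15a (1.98 ± 0.40, edgeR adjusted p = 0.0129) and Trib3 (1.22 ± 0.37, edgeR adjusted p = 0.0437). In positive libraries and in experiment 1 none rose and Psat1, of serine synthesis, fell (-0.93 and -0.91).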

How the data were processed

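Per the labels' protocols, libraries were stranded mRNA preparations sequenced from both ends over 75 bp. For each experiment the authors deposited raw counts, and FPKM values that equal those counts over gene length and median-of-ratios size factors, recomputed here to within 8.9e-16. The submitters' processing notes name Picard 2.19.2, STAR 2.7.5a, GRCm38 and DESeq2 1.30.0 without their roles. How reads were counted, and with which strand setting, is not given in the sources used here.

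All tests were run on the counts in R 4.3.3 with filterByExpr, TMM scaling and edgeR 4.0.16 (quasi-likelihood test), with p adjusted by Benjamini-Hochberg over all genes tested and a threshold of 0.05. Experiment 1 (6 libraries) and experiment 2 (12 libraries) were fitted separately, the interaction over all 18. Alternatives were DESeq2 1.42.0, limma 3.58.1 (voom with sample weights), RLE scaling, no filter, a replicate block, the compared groups alone, all 18 libraries in 1 fit, and leaving out libraries. The code was tested on simulated data. The 31 genes, the other gene lists and the tests were chosen with earlier results of these data known. Named genes are the 31, Smndc1, Trp53 and up to 4 per other list and comparison by smallest p; Ccna2, Ccnb1, Plk1, Ppm1d, Wrap53, Trp53cor1, Pecam1, Esam, Cd68 and the markers near 0 were added after their values were seen.

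Same-numbered libraries of both sorted populations deviated together from their group means, with correlations over genes of 0.62, 0.355, 0.136 and 0.311. The highest correlation of each library labelled negative with a positive library of another number was -0.03, 0.28, 0.04 and 0.14. These numbers were taken as pairs, and the paired test over 8 libraries was chosen after seeing the data. Replicates of a group differed from each other by more than sampling noise, with chi-square per degree of freedom of 13.5 or more in each of 24 pairs. Log ratios per library used CPM + 0.5. The limits for counts of 0 take 3 counts and cover counting error only. Exonic bases shared with another gene were 12.2% for Bax on the same strand, and 7.68% for Cdkn1a, 6.66% for Ei24 and 3.32% for Plk3 on the other.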

Additional observations from a re-analysis of the deposited data

Results flagged for a closer look

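In groups of 4 libraries, a value was singled out where its gap to the nearest other value took up most of the range of the group (Dixon's test at the 95% level). Of 99 groups checked 2 met this, and chance alone gives about 5% of groups. Phlda3 was at 0.948 CPM in shSmndc1_RIP_pos replicate 4, and at 0.0421 to 0.0785 CPM in the other 3 positive libraries. Tnfrsf10b was at 0.706 CPM in shSmndc1_RIP_pos replicate 2, and at 0.109 to 0.172 CPM in the other 3. Both genes had fewer than 100 counts in every library, with at most 33 and 27 in positive libraries.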

How the results depend on the processing

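No direction of a tested p53 target gene that had passed was reversed in any alternative run. In the libraries labelled negative against EV_RIP, 15 genes rose as reported, 5 to 19 with 1 library left out and 0 without replicates 3 and 4, and limma-voom called 1 lower (0 to 1 with 1 library left out). For shSmndc1 against EV, 1 gene rose as reported, with 3 under DESeq2, 8 without the filter, 3 under limma-voom, 5 with the replicate block, 4 in the fit over all 18 libraries and 0 to 4 with 1 library left out; 0 fell as reported, with 1 without the filter, 5 under limma-voom and 0 to 1 with 1 library left out. For positive libraries against EV_RIP, 0 rose as reported, with 2 under DESeq2, 1 under RLE scaling, 2 without the filter, 4 under limma-voom, 1 with the replicate block, 3 with the compared groups alone and 0 to 1 with 1 library left out. There 1 fell as reported, with 0 under RLE scaling, 2 without the filter, 2 under limma-voom, 2 with the compared groups alone and 0 with any library left out. For positive libraries against libraries labelled negative, 0 were lower as reported without pairing, with 14 under DESeq2, 13 without the filter, 18 under limma-voom, 6 with the replicate block in the fit of 12 libraries, 17 with the replicate block over the 8 libraries and 0 to 16 with 1 library left out, the 16 without negative replicate 1. Higher were 0, with 1 under limma-voom, 1 with the replicate block over 8 libraries and 0 to 1 with 1 library left out. The interaction of the libraries labelled negative with experiment 1 had 0 higher, with 3 without the filter, 1 with the replicate block (Pidd1) and 0 to 2 with 1 library left out. The cause of these changes was not tested, other than that fewer libraries entered some fits.

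Numbers of EV and shSmndc1 libraries (correlations -0.03, -0.01 and 0.26), and of EV_RIP and either sorted population (from -0.29 to 0.49), did not pair them, so that block is only an alternative there. Over all genes, calls in the comparison of libraries labelled negative with EV_RIP ranged from 127 to 3036 higher and 32 to 2795 lower with 1 library left out, against 1544 and 1076 as reported. Depth limits the scarce genes: Pmaip1, Perp, Phlda3, Tnfrsf10b and Gdf15 allow no statement about their absence of change.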
